A study of Mus musculus with 23 samples.

Results

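Late erythroblasts are the nucleated red cell precursors that have begun to load haemoglobin and to build the membrane of the red cell. Here they were defined in mouse bone marrow by transcripts alone. A cell from a dissected clump was kept when it held at least 1000 estimated transcripts. It was called erythroid when at least 4 of 10 genes (Car1, Car2, Klf1, Slc4a1, Rhd, Cldn13, Hemgn, Tspan33, Trim10 and Minpp1) were above 0 and the neutrophil granule genes Elane, Mpo and Prtn3 together stayed under 40 per 10000 transcripts. It was called late when Slc4a1, which encodes the band 3 anion exchanger, was at or above Car1, a carbonic anhydrase of earlier erythroid cells. By this rule 244 of 707 kept dissected cells were late erythroblasts, out of 952 kept cells in the series, and 45 more erythroid cells were early erythroblasts.

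Erythroblasts mature through a series of divisions in which the cell becomes smaller, haem synthesis and globin transcripts come to dominate, ribosomes and mitochondria are lost, and the nucleus is finally expelled. In the marrow this takes place in erythroblastic islands, where erythroblasts sit around a central macrophage. Band 3 anchors a protein skeleton under the membrane, the enzyme Alas2 commits the cell to haem synthesis, and the mitochondrial carrier Slc25a37 (mitoferrin) brings in the iron.

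The study pulled small groups of attached cells from mildly flushed bone marrow, separated each group by needle into its cells, and measured each cell with CEL-seq, a 3' end method that tags single transcripts. The other group was made of hematopoietic stem cells (HSC) sorted as Lineage- Kit+ Sca1+ CD150+ CD48-. The labels give both groups only as mouse bone marrow and name no strain, age, genotype or treatment. Of 18 dissected libraries, 17 were in the table of the whole series and all 17 held at least 1 late erythroblast, and 245 sorted HSC were kept. The labels do not say which libraries came from separate animals, so the p-values here rest on differences between libraries that could be purely technical.

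The kept late cells held 1000 to 12946 transcripts each, with a median of 1864, and the depth was 1064 to 22382 with a median of 4898 in early cells. No 2 cell columns were identical. Each gene counts as 1 tag per molecule at its 3' end, so levels are given as transcripts per 10000 without a correction for gene length. Intervals and sums of counts cover counting error only. Fewer tags from a cell and less RNA in it cannot be told apart here.

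Slc4a1 and Car1 divided the cells, so their values are a description. Late cells held Slc4a1 at a median of 48.4 per 10000, Car1 was at 0 in 148 of the 244, and a median of 7 of the 10 genes was above 0. The line between late and early was thin in places: 11 late cells had equal values of both genes, 2 of them with both at 0, and 14 late cells had Slc4a1 less than 1.5 transcripts above Car1. On the other side 6 early cells had it less than 1.5 transcripts below. At the entry to the erythroid class, 24 late cells had exactly 4 of the 10 genes, and 40 kept cells just missed the class with 3 of them.

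The label fitted most of these cells and not all of them. Over all 244 cells the granulocyte marker list (18 genes) had a median of 61.1 per 10000, but 26 late cells (10.7%) from 10 libraries held 500 or more. These granulocyte-rich cells had a median of 1854 per 10000 from granulocyte genes, only 109 from globin genes and 25.8 from membrane and skeleton genes, and a median of 4 of the 10 genes that chose them. In the other 218 late cells the medians were 53.1 from granulocyte genes, 1754 from globin genes and 221 from membrane and skeleton genes. Replicates 3, 10 and 16 held 6, 5 and 4 of the granulocyte-rich cells. In 418 other dissected cells the granulocyte list had a median of 1802, and in sorted HSC the median was 0. Skeletal muscle genes reached 50 per 10000 in 6 late cells, 5 of them from replicate 11. The macrophage list was at 50 or more in 4 late cells and the megakaryocyte list in 7, and both lists had a median of 0. The results below are given with and without the granulocyte-rich cells where it matters.

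The promoters below are shown because the 3 erythroid genes among them rank high among the genes that rose, or chose the cells, and come from different steps of red cell maturation. Each is the 250 bases before the annotated start, read 5' to 3' from RefSeq (GRCm38.p6), and each of the 4 genes lies on the plus strand. Capitals mark AGATAA or TGATAA, or their reverse complements TTATCT and TTATCA, the letters read by GATA factors such as GATA1. The first encodes alpha globin, at chr11:32283422-32283671; the second encodes the first enzyme of haem synthesis, at chrX:150547167-150547416; the third, at chr17:36869324-36869573, belongs to Trim10, a RING finger protein of the tripartite motif family known from terminal erythroid cells; the last, at chr2:84798578-84798827, belongs to the conjugating enzyme Ube2l6 and holds no match.
Hba-a1: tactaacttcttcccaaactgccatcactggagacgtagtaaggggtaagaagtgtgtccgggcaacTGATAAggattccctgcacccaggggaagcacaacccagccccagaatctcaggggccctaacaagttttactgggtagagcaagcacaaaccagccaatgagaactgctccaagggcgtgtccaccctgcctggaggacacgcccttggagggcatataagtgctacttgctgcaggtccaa
Alas2: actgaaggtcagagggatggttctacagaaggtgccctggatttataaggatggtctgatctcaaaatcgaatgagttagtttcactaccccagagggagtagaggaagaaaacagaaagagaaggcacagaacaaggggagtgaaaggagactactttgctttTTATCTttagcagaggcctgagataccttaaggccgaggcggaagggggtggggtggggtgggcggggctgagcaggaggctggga
Trim10: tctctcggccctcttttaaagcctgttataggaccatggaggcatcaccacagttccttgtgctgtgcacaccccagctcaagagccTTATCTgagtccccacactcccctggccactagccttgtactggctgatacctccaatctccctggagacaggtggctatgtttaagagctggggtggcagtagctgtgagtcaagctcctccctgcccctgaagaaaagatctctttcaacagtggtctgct
Ube2l6: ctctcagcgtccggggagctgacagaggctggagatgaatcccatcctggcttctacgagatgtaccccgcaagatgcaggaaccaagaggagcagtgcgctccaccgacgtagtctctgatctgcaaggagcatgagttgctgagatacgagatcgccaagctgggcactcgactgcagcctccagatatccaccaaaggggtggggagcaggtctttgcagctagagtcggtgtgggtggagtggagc

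The Hba-a1 and Hba-a2 windows share an unbroken run of 247 bases, which begins at base 4 of the Hba-a1 window and at base 1 of the Hba-a2 window. Of the 112 genes that were higher in late cells in the main comparison described below, 74 had a promoter entry and 17 of these (23%) held the motif in the 250 bases. Of the 41 lower genes, 30 had an entry and 2 (6.67%) held it. The share was 13.4% of 625 tested genes with an entry and 16.6% of all 32851 promoters in the table. A match describes letters only.

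Of the 24 gene lists the globin genes had the highest median in late cells, at 1641 per 10000. The Beta-s row, a beta globin transcript, made up 1232 ± 383 per 10000 (SD, n = 13 libraries with at least 5 late cells), with a lowest library of 472, a median of 1247 and a highest of 1710. Every one of the 244 cells held it. Pooled over cells, it stood at 99.2 per 10000 in early cells, 68.7 in other dissected cells and 0.691 in sorted HSC. Because a 4-base tag can mark at most 256 molecules of a gene in a cell, the highest Beta-s values are compressed; 3 late cells were at 250 tags or more. Hbb-b1 was at 41.7 ± 35.7 and Hba-a1 at 30.2 ± 17.1 per 10000 (SD, n = 13 each). Hba-a2 was far lower, at 4.1 ± 3.47, and was at 0 in 116 late cells. These alpha and beta globin copies are close to identical in sequence, so how reads were divided between them is uncertain, and their ratios are not compared.

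The other genes proposed as markers were sparse per cell. Trim10 is 1 of the 10 genes that chose the cells, so its level is a description. It stood at 5.24 ± 2.23 per 10000 (SD, n = 13), from 1.44 to 10.4 over libraries, against 1.15 in early cells, 0.268 in other dissected cells and 0 in sorted HSC. Tmcc2, a membrane protein of the endoplasmic reticulum, stood at 4.82 ± 2.75, from 2.58 to 12.4, against 0.191 in early cells and 0.592 in other dissected cells, and was at 0 in 154 of the 244 late cells. Slc4a1, which the rule used, was at 39.5 ± 13.9, from 20.1 to 60.1. Of the genes that the rule did not use, Beta-s, Hba-a1, Hba-a2 and Tmcc2 lay above the pooled level of the other dissected cells in all 13 libraries.

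**Figure D1:**
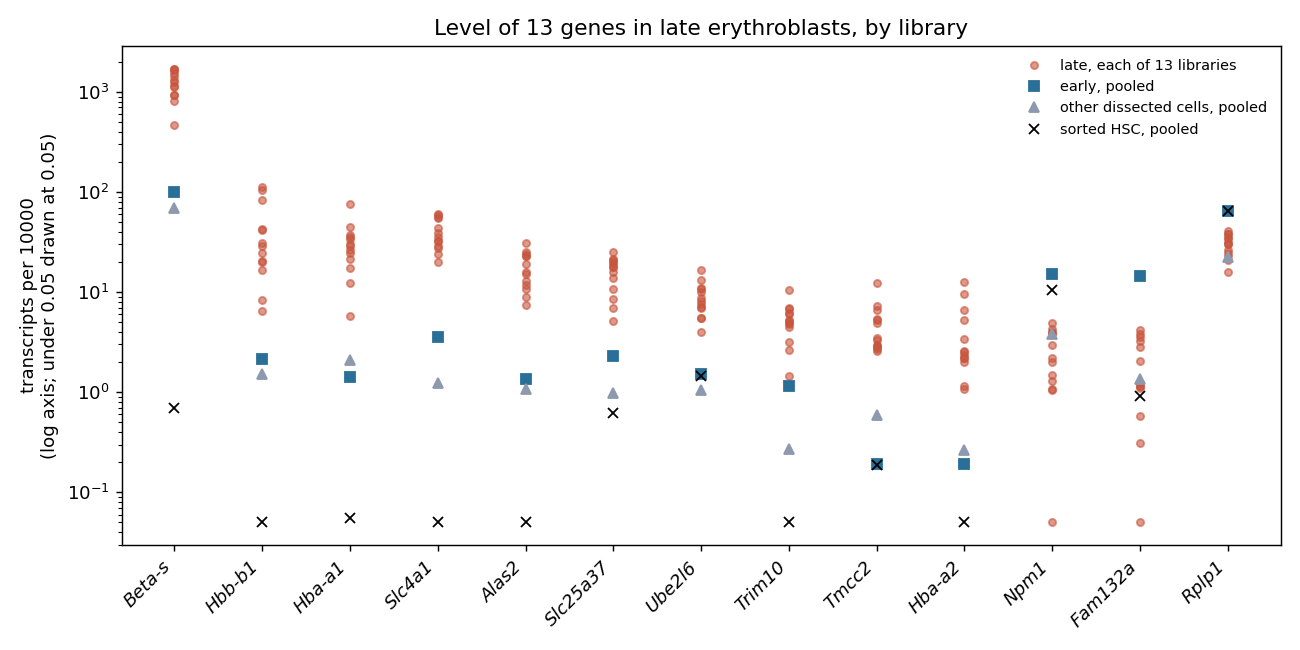
Level of 13 genes in transcripts per 10000 (log axis, values under 0.05 drawn at 0.05) in late erythroblasts, one point for each of 13 libraries with at least 5 late cells, with pooled early, other dissected and sorted HSC cells as squares, triangles and crosses. Beta-s lies between 472 and 1710 in late cells, and Npm1 and Fam132a lie below the early level in each library.

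Late cells made up 78.9% ± 16.1 (SD) of the erythroid cells over 14 libraries with at least 5 of these. The share was lowest in replicate 8, with 2 of 5 cells, and replicates 3 and 16 held only late cells, 18 and 39. Pooled, 240 of 283 erythroid cells were late, or 84.8% (exact Clopper-Pearson 95% interval 80.1 to 88.8). The clumps were picked by hand, so this share is not that of the marrow.

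To ask which genes differed between the stages in the same libraries, transcripts were summed over late and over early cells of each library and fitted with the library as a block in edgeR. Only replicates 7, 10 and 11 held at least 5 cells of each stage, and this is the main comparison. With at least 3 cells of each, 9 libraries took part (replicates 4, 7 and 9 to 15). This alternative was planned with the design and is given beside it for gene lists and for some genes. The 13 genes of the rule got no p. Genes that vary with Slc4a1 or against Car1 from cell to cell had to differ between classes cut on those genes, so a call says that a gene went with that division and is no independent sign of a stage. In the 3 libraries 153 of 830 tested genes differed at an adjusted p under 0.05 (18.4%), 112 higher (13.5%) and 41 lower (4.94%) in late cells. In the 9 libraries 268 of 392 differed (68.4%), 127 higher (32.4%) and 141 lower (36%). The counts for gene lists below are to be read beside these shares. Of 82 genes called in the 3 libraries and tested in both, 81 were called in the 9 libraries, all in the same direction. The 9 libraries include those 3, and their fit called 267 of the 391 genes tested in both. The overlap is therefore no independent repeat.

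How the libraries were scaled moved this balance. Scaled by library totals rather than TMM factors, 92 genes were higher and 121 lower in the 3 libraries, so that 43.2% of calls were higher against 73.2%, and in the 9 libraries 87 were higher and 188 lower. TMM raised the log2 fold changes by a median of 0.24 and 0.33 over totals, so a small rise is a rise relative to the other genes. Without the library block only 11 genes passed in the 3 libraries, and leaving out replicate 11 left 32.

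Globin genes had the highest median of the lists. The 3 libraries had 5 of 5 tested members higher, at a median log2 fold change of 3.25 against −0.005 over all tested genes. The 9 libraries had 3 of 3 higher, at a median of 4.22. These counts stand beside 13.5% and 32.4% higher over all tested genes. Hba-a2 (32 late and 4 early transcripts) and Hbb-b2 (61 and 7) passed the filter on low sums through their late sums. The Beta-s row was added to this list after the data were seen. In late sums of replicates 7, 10 and 11, Hba-a1 stood at 31.2, 47.6 and 50.1 TMM-normalised transcripts per 10000, and in early sums at 4.55, 1.31 and 2.42. Late and early values did not overlap, and the log2 fold change was 4.09 ± 0.49 (SE, edgeR adjusted p = 1.5e-13). Beta-s rose by 3.24 ± 0.68 (SE, edgeR adjusted p = 6.7e-05), from 415, 242 and 69.8 to 2517, 1567 and 1553 per 10000. Its early level was highest in replicate 7 and lowest in replicate 11.

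In haem synthesis and iron handling, the rate-limiting enzyme and the mitochondrial iron carrier were higher. Alas2 stood at 13.2, 31.4 and 19.4 per 10000 in late sums and at 2.28, 3.94 and 2.18 in early sums of replicates 7, 10 and 11, a log2 fold change of 2.94 ± 0.43 (SE, edgeR adjusted p = 1.3e-09). Slc25a37 rose by 2.89 ± 0.42 (SE, edgeR adjusted p = 1.0e-09), and it was at 31.2, 26.8 and 14.3 in late and 3.98, 4.93 and 1.21 in early sums. No early library reached the lowest late one for either gene. Fech, which inserts iron into the ring, rose by 1.46. Of 12 tested haem genes 3 were higher and none was lower, with a list median of 0.83. Of 7 tested iron genes 1 was higher (Slc25a37) and none lower, at a median of 0.58. Of all tested genes 13.5% were higher, so the iron count was near that share. In the 9 libraries 8 of 10 haem genes and 5 of 7 iron genes were higher, against 32.4% of all genes. Among these iron genes were the transferrin receptor Tfrc at 1.44 and ferritin light chain Ftl1 at 0.93. Pcbp1, an iron chaperone and RNA-binding protein, was lower at −0.72.

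Among genes of the membrane and its skeleton, 5 of 14 tested members were higher in the 3 libraries, none lower, at a median of 1.10. Of all tested genes 13.5% were higher. Ank1, the ankyrin that ties the skeleton to band 3, rose by 1.29, Epb4.1, protein 4.1, by 1.52 and Epb4.9, dematin, by 1.67. Aqp1, the water channel, had 0.65 ± 0.38 (SE) and did not pass in the 3 libraries (edgeR adjusted p = 0.22), and rose by 0.89 in the 9. There 6 of 7 membrane genes were higher, against 32.4% of all genes. Without granulocyte-rich cells 11 of 11 tested ones were, against 32.3%.

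Terminal genes, which are known from the last divisions and from reticulocytes, were higher for 6 of 6 tested members at a median of 2.19. In the 9 libraries 3 of 3 were higher, at a median of 1.96. Of all tested genes 13.5% and 32.4% were higher. Few of the 22 measured members were tested, and Tmcc2 passed the filter on low sums through its late sums. Minpp1, a rule gene on this list without a p, went the other way, at −2.14 and, in the 9 libraries, −1.80. Tmcc2 counted 44 transcripts in late and 2 in early sums, a ratio of 21 with a counting interval of 5.48 to 179, and its fitted log2 fold change was 4.38. Mkrn1, a ubiquitin ligase, rose by 2.04, Isg20, an exonuclease, by 1.73, and Btg2, an anti-proliferative gene, by 2.21. In the ubiquitin list 4 of 7 were higher, against 13.5% of all genes, and 3 of 4 in the 9 libraries, against 32.4%. Among the 4 were the conjugating enzyme Ube2l6 at 2.60 and Ube2o, which marks ribosomal proteins for removal in reticulocytes, at 2.17. Ubac1 was another, at 1.11, and did not pass with library totals (edgeR adjusted p = 0.10). Bnip3l (Nix), the receptor through which maturing red cells clear mitochondria, rose by 1.54 ± 0.39 (SE, edgeR adjusted p = 0.0018) and Map1lc3b, an autophagosome protein, by 1.32, both of the 2 tested members of their list. In the 9 libraries the same 2 were tested and higher, at a median of 1.38.

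Of the erythroid transcription factors 3 of 6 tested members were higher in the 3 libraries, against 13.5% of all genes. In the 9 libraries 2 of 4 were, against 32.4%. Values here are those of the 3 libraries unless stated. Nfe2, an activator of globin genes, rose by 2.27, E2f2, a cell cycle regulator of the erythroid lineage, by 1.79 and Tal1, a partner of GATA1, by 1.31, while Lmo2 had 0.35 ± 0.37 (SE, edgeR adjusted p = 0.53). Of antioxidant genes 2 of 8 were higher, the glutathione enzymes Gpx1 at 1.41 and Gsr at 2.30, against 13.5% of all genes. In the 9 libraries 3 of 7 were higher and 1 lower, against 32.4% and 36% of all genes. Prdx2, a peroxiredoxin abundant in red cells, had 0.95 ± 0.43 (SE, edgeR adjusted p = 0.10) and rose by 1.27 in the 9 libraries. Eif2ak1, the haem-regulated kinase that restrains globin translation when haem is short, rose by 1.53 within a translation list of which 1 of 14 was higher and 2 lower. Of all tested genes 13.5% were higher and 4.94% lower. In the 9 libraries 3 of 12 translation genes were higher and 8 lower, at a median of −0.70, against 32.4% and 36% of all genes.

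The ribosomal protein genes lay on the other side. Their median log2 fold change was −0.87 in the 3 libraries, with 2 of 34 tested members lower and none higher, and −0.76 in the 9 libraries, where 31 of 33 were lower and none higher against 36% lower over all genes. Rplp1 stood at 30.3, 59.4 and 58 per 10000 in late and 87.6, 95.3 and 88.4 in early sums of replicates 7, 10 and 11. The groups did not overlap, yet the edgeR adjusted p was 0.14 in the 3 libraries, and in the 9 libraries Rplp1 fell by 0.76 on the log2 scale (edgeR adjusted p = 6.6e-05), lower in 9 of 9. Npm1, nucleophosmin, a nucleolar protein, fell by 1.66 (edgeR adjusted p = 0.0014) and by 2.18 in the 9 libraries, and Fam132a, which encodes the secreted protein adipolin, fell by 2.39 ± 0.44 (SE, edgeR adjusted p = 2.4e-06). Fam132a was at 4.73, 0.603 and 6.38 per 10000 in late and 16.5, 7.23 and 31.7 in early sums.

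Other genes fell as well. Asns, asparagine synthetase, fell by 2.93 (5 late against 44 early transcripts), C1qbp, a mitochondrial matrix protein, by 2.44, Tomm20, of the outer membrane import complex, by 2.32, Mrpl52, of the mitochondrial ribosome, by 2.05, and Vdac2, an outer membrane channel, by 1.80. Nme1, a nucleoside diphosphate kinase, fell by 2.01, Eci2, of fatty acid oxidation, by 1.90 and Eef1g, an elongation factor subunit, by 1.72. Phb2, prohibitin, fell by 1.66 and Impdh2, of guanine nucleotide synthesis, by 1.65. Late counts were also low for C1qbp (6 late and 40 early transcripts), Mrpl52 (8 and 40) and Eci2 (9 and 42). These and Asns, Tomm20, Vdac2 and Nme1 passed the filter on low sums through their early sums. None of them, nor Phb2, was tested in the 9 libraries. Of the respiratory chain list 2 of 26 were lower and none higher in the 3 libraries, against 4.94% lower over all genes, and 7 of 22 were lower in the 9, against 36%, at medians of −0.22 in both. Of the chaperone list 3 of 9 tested members fell, Hspa8 by 1.27, Hsp90ab1 by 1.06 and Hspe1, a mitochondrial co-chaperonin, by 1.5. In the 9 libraries 3 of 4 tested chaperones were lower, at a median of −1.24. Of all tested genes 4.94% and 36% were lower.

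**Figure D2:**
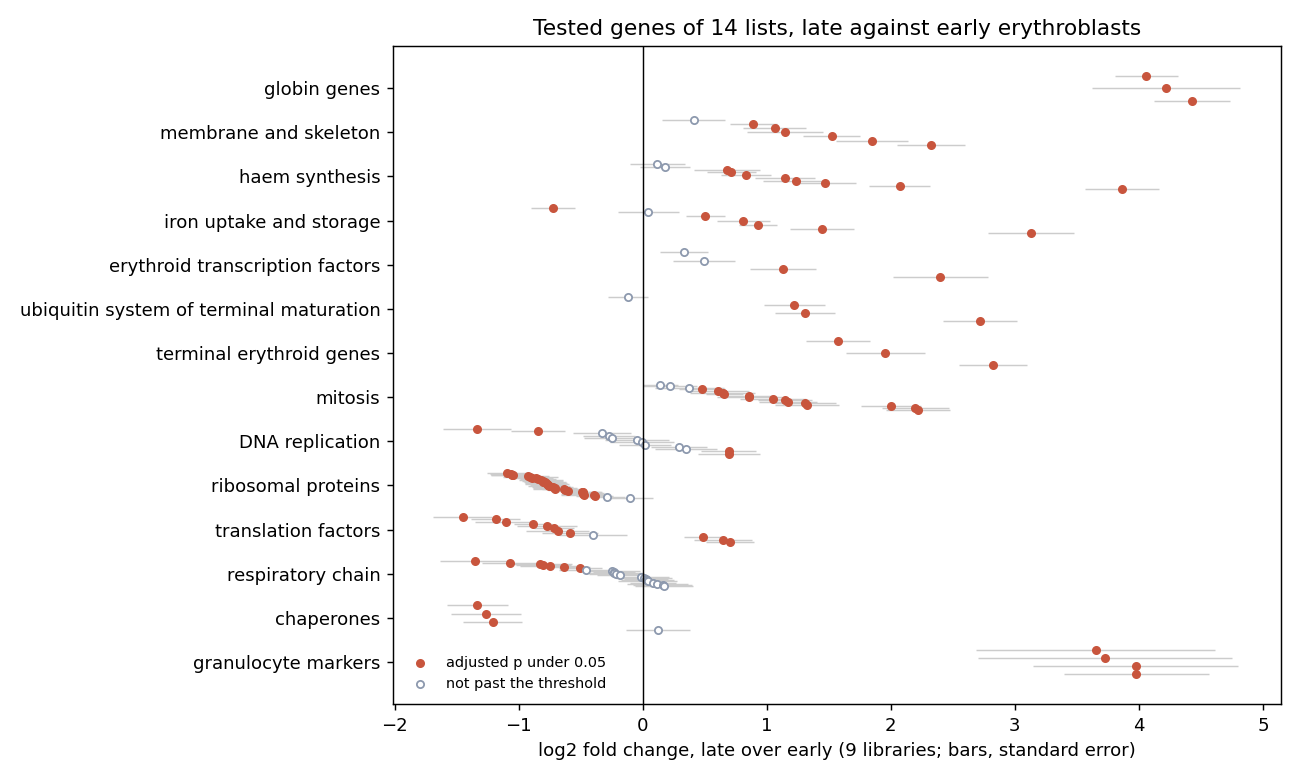
Log2 fold change of late over early erythroblasts for the tested genes of 14 lists in 9 libraries, with standard errors as bars and filled points for an edgeR adjusted p under 0.05. Globin genes lie near 4, 31 of 33 ribosomal protein genes are filled and below 0, and DNA replication genes lie on both sides of 0.

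Of the mitosis list 4 of 21 were higher and none lower in the 3 libraries, at a median of 0.63 (13.5% of all genes were higher), and 14 of 17 were higher in the 9 libraries, against 32.4% of all genes, or 9 of 17 with library totals. Mki67, the Ki-67 antigen of cycling cells, stood at 68.1, 31 and 30.7 per 10000 in late and 22.8, 13.5 and 8.72 in early sums of replicates 7, 10 and 11, and rose by 1.53 ± 0.42 (SE, edgeR adjusted p = 0.0040). Late and early values did not overlap. Ube2c, a conjugating enzyme that works with the anaphase-promoting complex, rose by 1.46 and H2afx, a histone variant, by 1.70. In the DNA replication list 1 of 16 was lower (Dut, the dUTPase, by 1.5) and none higher, against 4.94% lower over all genes, with a median of −0.38. In the 9 libraries 2 were higher (Rrm2 and Tk1, both of nucleotide supply, at 0.69 and 0.70) and 2 lower (Dut and Mcm3), and with library totals none was higher and 5 were lower. Cdkn2c, an inhibitor of cyclin-dependent kinases, rose by 1.65, while the cyclin Ccnd3 had −0.30 ± 0.50 (SE, edgeR adjusted p = 0.72) and turned to 0.39 in the 9 libraries. Of 91 tested genes singled out by the naming rule or printed here, 31 did not pass in the 3 libraries, with log2 fold changes from −1.12 to 1.17.

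Transcripts of granulocytes also went with the late class. Of 10 tested granulocyte markers 7 were higher in the 3 libraries at a median of 3.02, against 13.5% of all genes. Ltf (lactoferrin), with 179 late and 12 early transcripts, passed the filter on low sums through its late sums. Ltf, Ngp (a neutrophil granule protein), S100a8 (a calcium-binding protein of neutrophils) and Lcn2 (lipocalin) ranked among the 12 highest genes. They had log2 fold changes of 3.70, 3.40, 3.22 and 3.19. They were uneven over libraries: S100a8 stood at 5.68, 339 and 56.8 per 10000 in late sums of replicates 7, 10 and 11 and at 3.41, 26 and 4.12 in early sums. Replicate 10, with 5 granulocyte-rich late cells, was the high one. Without granulocyte-rich cells, in the 9 libraries, 4 of 4 tested granulocyte markers were still higher, at a median of 2.45 in place of 3.85. Tyrobp and Mpeg1, genes of myeloid cells, rose too, by 3.22 and, with 42 late and 2 early transcripts, at a ratio of 20.1 (counting interval 5.22 to 171). Ppbp, of platelets and megakaryocytes, rose by 2.73. The part of granulocyte transcripts in the other gene groups was not tested; with those cells left out 119 of 368 genes were higher (32.3%) and 138 lower (37.5%) in the 9 libraries, and the medians were 4.36 for globin, 1.14 for haem, 1.73 for membrane and −0.83 for ribosomal protein genes.

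Late cells gave fewer transcripts and fewer kinds of genes. An early cell needs at least 1 Car1 transcript, while a late cell can hold none of either gene, so the rule itself bears on depth. The median number of transcripts per cell in replicates 7, 10 and 11 was 1504, 2263 and 1764 in late and 2167, 7778 and 10461 in early cells. The mean difference was −1.63 ± 1.03 on the log2 scale (SD, n = 3), lower in late cells in 3 of 3 libraries; the exact two-sided sign-flip permutation test gave p = 0.25, the smallest that 3 libraries allow. With 9 libraries the difference was −1.78 ± 0.74 (SD, n = 9), lower in 9 of 9 (exact permutation p = 0.0039, the smallest 9 libraries allow). With each cell thinned to 1000 tags, which left out 17 shallower late cells and no early cell, late cells held a mean of 597, 618 and 604 genes in replicates 7, 10 and 11 and early cells 625, 664 and 650. The difference was −40.3 ± 10.1 genes (SD, n = 3, exact permutation p = 0.25), and −54.6 ± 19.6 genes over 9 libraries (SD, n = 9, exact permutation p = 0.0039). Unthinned, the median number of genes per cell was 882 in late and 1948 in early cells.

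**Figure D3:**
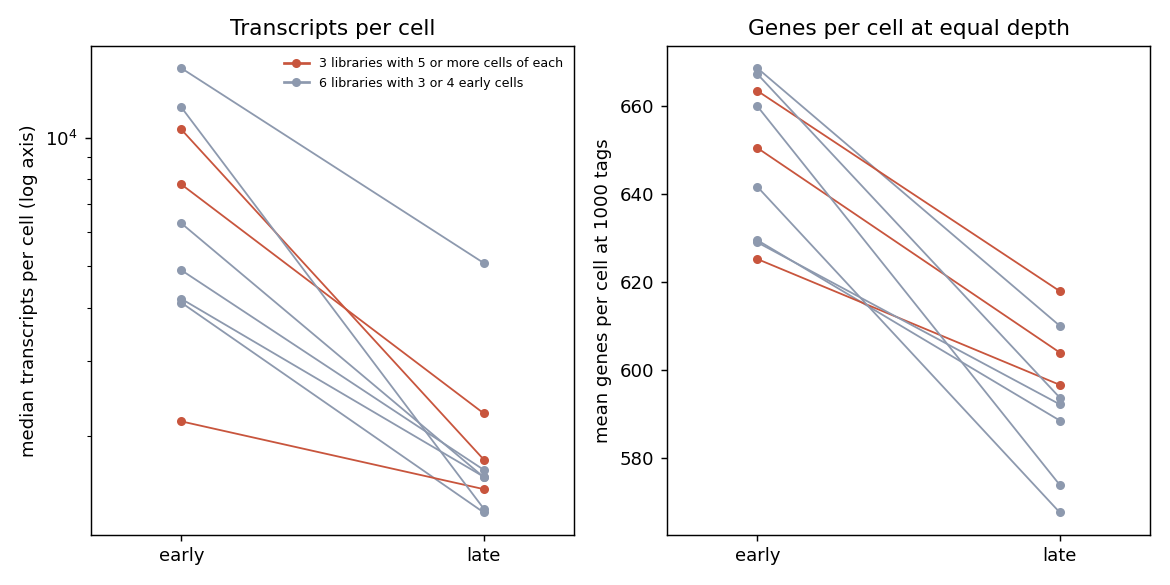
Median transcripts per cell (left, log axis) and mean genes per cell after thinning to 1000 tags (right), with a line joining early and late cells of each of 9 libraries. Red lines are the 3 libraries with at least 5 cells of each stage, and the line falls from early to late in all 9 libraries on both sides.

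The late class spans a wide range of its own. Leaving out granulocyte-rich and muscle-rich cells, 212 late cells held from 35.7 to 4776 globin transcripts per 10000. Among them the globin share ran against the share of ribosomal protein transcripts, with Spearman's rho of −0.84 across cells, or −0.78 when the second share was taken of non-globin transcripts, and from −0.89 to −0.44 within the 9 libraries with at least 10 such cells. Against DNA replication genes rho was −0.46 on the non-globin scale and was above 0 in none of the 9 libraries. On the same scale rho was 0.76 with membrane and skeleton genes, 0.77 with antioxidant genes and 0.71 with terminal genes. Each was above 0 in 9 of 9 libraries. With plain shares the values were 0.61, 0.62 and 0.63. The membrane list includes Slc4a1, which the rule used. Cells with more globin were also shallower (rho −0.56 with total transcripts). The cells of a library share its preparation, and the shares share a total, so these values are descriptions.

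Ranked by globin share and divided into 3 bands, the lowest 70 cells had a median of 711, the middle 71 of 1763 and the highest 71 of 2654 globin transcripts per 10000, and median totals of 3034, 1716 and 1500. Per 10000 non-globin transcripts, ribosomal protein genes made up 985, 554 and 301 from the lowest to the highest band. Replication genes did not follow the same course: their pooled share was 138, 136 and 64.5, and their medians over cells were 154, 130 and 41.6. Members differed between the lower bands, with Rrm2 at 24.1, 34.2 and 18.2 and Mcm7 at 11.3, 8.83 and 2.36. The helicase subunit Mcm6 was at 7.94, 5.25 and 1.49 and the sliding clamp Pcna at 16.7, 17.4 and 7.85. Mitosis genes were at 222, 327 and 375, with Ube2c at 9.20, 22.5 and 42.6 and Mki67 at 16.9, 35.2 and 44.8. Single cells of the highest band varied widely in mitosis genes, with a median of 371 and quartiles of 132 and 529, and 28 of its 71 cells lay below the median of all 212 cells, 287. Of the 10 cells with most globin, from 4 libraries, 7 lay below that median in mitosis genes, at a median of 82, and 10 lay below the median of all cells in replication genes, 112.

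Some genes were concentrated in the globin-rich band. Xpo7, a nuclear exporter needed for late nuclear maturation, was at 0.224, 2.68 and 18.4 per 10000 non-globin transcripts, from 5, 32 and 149 transcripts. Tmcc2 was at 1.62, 4.69 and 25.2, the interferon-induced gene Rsad2 at 1.93, 7.68 and 19.1 and Ube2o at 2.02, 4.84 and 12.1. Alas2 had 12.6, 35.3 and 50.9, and Bnip3l 7.27, 11.1 and 20.9. Car1 and Npm1 ran the other way, at 9.83, 3.83 and 1.36 and at 3.97, 1.83 and 0.993. Their list, the progenitor and early erythroid genes, rose as a whole, at 153, 201 and 235. Car2 was at 59.8, 90.5 and 127 and Ctse at 31, 48.2 and 49.1, while Nme1 fell, at 2.34, 0.249 and 0. Between the stages 2 of 6 tested members of that list were lower and none higher in the 3 libraries. The shares over all genes tested there were 4.94% lower and 13.5% higher. In the 9 libraries 2 of 4 were higher and 2 lower, against 32.4% and 36% of all genes. The granulocyte list stood at 65.6, 88.8 and 114 in the same bands.

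**Figure D4:**
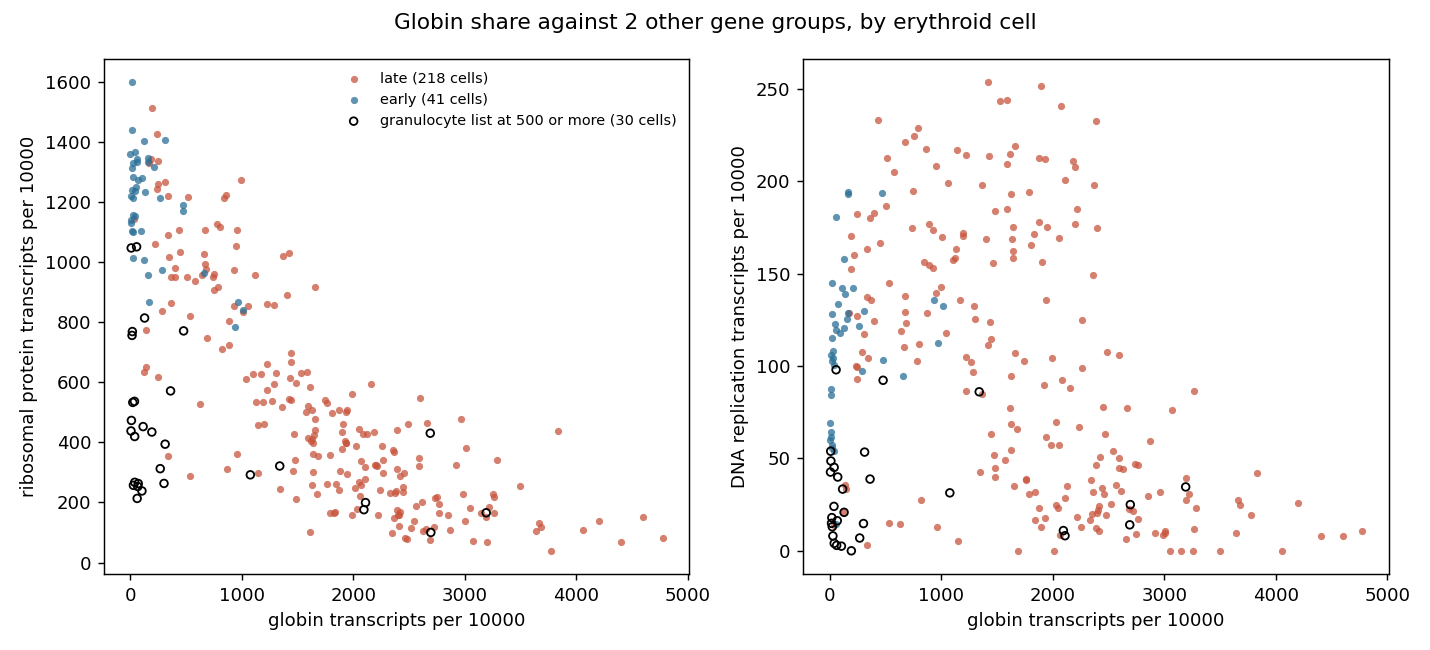
Globin transcripts per 10000 of each erythroid cell against ribosomal protein transcripts (left) and DNA replication transcripts (right) per 10000, with late cells in red, early cells in blue and granulocyte-rich cells of either stage as open circles. Ribosomal protein transcripts decline along the globin axis, replication transcripts are low in the cells with most globin, and most granulocyte-rich cells lie near the origin of the globin axis.

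Late cells were 244 of 707 kept dissected cells, and 39 of 65 in replicate 16, and many shared a clump with another late cell. The labels do not define the numbers in the cell names, and the first one after the library prefix was read as the clump. By this reading kept cells came from 441 clumps, 185 of which held a late erythroblast, and a clump held at most 5 kept cells. All partner counts here rest on it. Of the 244 late cells 181 had another kept cell in the clump. For 113 of these (62.4%), from 11 libraries, a partner was a late erythroblast, so that a pair of late cells counts for both, and for 11 (6.08%) an early one. A cell with most transcripts from mature neutrophil genes was a partner for 54 (29.8%), promyelocyte-like cells for 15, myelocyte-like cells for 11, eosinophil-like cells for 5 and macrophage-like cells for 8 (4.42%), where a class is the marker list with the highest sum at 100 or more per 10000. The kept cells of these classes numbered 256, 31, 22, 35 and 13, beside 244 late and 45 early cells. Whether late cells were partners more often than these numbers would give was not tested. The granulocyte list had a median of 77.1 per 10000 in the 75 late cells with a partner of a granulocyte class, 52.6 in the 106 with other partners only and 68.5 in the 63 with no other kept cell, and 11, 7 and 8 of these were granulocyte-rich. The middle ranges of the 3 sets overlapped, from 35 to 164, 26.5 to 123 and 24.3 to 134.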

How the data were processed

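Mouse bone marrow cells were measured by CEL-seq in 23 libraries. The submitters' processing notes name BWA 0.6.2-r126 and the build mm10, and no annotation. The authors deposited one table with estimated transcripts, also called expected counts, in 23536 rows for 1915 cells; they had corrected repeated tags, and 99.9999% of the values convert back to whole tags within 0.01. Their per-library files hold values of the same kind and served as an alternative. Replicates were numbered by record, and dissected replicate 18 entered only through those files.

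The members and gene lists were chosen with earlier results of these data known. Cells were classified by the rule in the text, and no doublets were called, since wells were filled by hand. Sums per library and stage were rounded and fitted with edgeR 4.0.16 (TMM, filterByExpr, robust quasi-likelihood, library as block; R 4.3.3). P-values were adjusted over all tested genes after Benjamini and Hochberg, with a threshold of 0.05, and the SE was approximated as the fold change in log2 divided by the root of F. Late and early sums were paired because their cells belong to the same library. The labels do not say whether a library was a single plate. Totals and thinned gene numbers were compared by exact sign-flip permutation (scipy 1.17.1). In simulated counts, the 3-library fit on 840 genes recovered 12.5% of 2-fold and 71.4% of 4-fold changes. The 9-library fit on 465 genes recovered 74.2% and 100%. The simulation gave every gene the same spread beyond counting error and let libraries differ only in depth. These rates need not hold for the real counts. The naming rule took, past the threshold and with the same sign in all 3 libraries, the 12 genes with the largest rise and the 12 with the largest fall, then the 3 most abundant tested genes of each list; predicted genes were left out, and further list members were picked after their values were seen, and some genes of the lists are counted but not reported here by name. The B cell, macrophage and skeletal muscle lists had no tested member. In the 3 libraries none of 4 tested histone genes passed, and 1 of 4 glycolysis genes was higher (Pkm, a pyruvate kinase), none lower. In the 9 libraries 1 of 2 histone genes was higher (H3f3a, at 1.33). There 1 of 2 glycolysis genes was lower (Ldha, at −1.22) and none higher. Alternatives covered tool, scaling, filters, block, cell limits and left-out libraries. Promoters come from RefSeq (GRCm38.p6).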

Additional observations from a re-analysis of the deposited data

Results flagged for a closer look

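In 61 sets of values over 9 libraries, the late minus early difference of 1 library stood apart by more than Dixon's 95% limit in 3, where about 1 in 20 sets would by chance. For Beta-s the ratio of gap to range was 0.500: the difference of log2(value + 1) was 7.96 in replicate 13, whose early sum held only 12.4 per 10000, and 2.54 to 5.25 in the other libraries. For Impdh2 the ratio was 0.590, with −3.55 in replicate 7, where the late sum held 0, and −1.70 to −0.408 elsewhere. For Car1, a gene of the rule, it was 0.604, with −5.60 in replicate 4, where the late sum held 0, and −2.65 to −0.710 elsewhere.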

How the results depend on the processing

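The comparison of genes rests on few early cells. Against 153 genes (112 higher, 41 lower), DESeq2 called 46 (41 and 5), no filter on low sums 100 (84 and 16), and the fit with no replicate block, that is without pairing by library, 11 (11 and 0). Requiring 2000 transcripts per cell left 2 libraries and 5 genes (5 and 0; 148 at an unadjusted p under 0.05 in edgeR), and at least 6 of the 10 genes left 73 (59 and 14). Library totals gave 121 lower genes and the per-library files 25. At least 3 cells gave 268 (141 lower). Leaving out 1 of the 3 libraries gave 32 to 207 genes, 31 to 140 higher and 1 to 67 lower. Chosen after seeing the data, leaving out granulocyte-rich cells gave 101 (24 lower) in 2 libraries and, with at least 3 cells, 257 (138 lower); with at least 3 cells, library totals gave 275 (188 lower), no replicate block 232 (120 lower) and DESeq2 259 (137 lower). Leaving out each of those 9 libraries gave 240 to 291. The cause of these shifts was not tested.

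With at least 3 cells the difference in transcripts per cell was −1.78 and that in genes per cell −54.6, both now past the threshold, and without granulocyte-rich cells −1.88 and −58.3. The late share moved by less than 1 SD in the 6 alternatives run. Of the 60 genes called among those that the naming rule took or that were picked later, none changed direction in an alternative that tested it; of the 31 others, 9 did in 35 of their comparisons. The log2 fold change of Ccnd3 turned to 0.39 with at least 3 cells, and to 0.086 with library totals, 0.36 with no replicate block and 0.72 with DESeq2 in the same 9 libraries. A 2-fold margin between Slc4a1 and Car1, at least 8 cells and leaving out the deepest 5% of cells each left fewer than 2 libraries and were not run.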
